A study of Mus musculus with 12 samples.

Results

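The livers compared here came from C57BL/6J mice labelled wild type: 4 control livers and 4 livers with non-alcoholic steatohepatitis (NASH) brought about by a diet, all 8 from mice given vehicle. They were chosen by those labels alone and make up 8 of the 12 libraries of the study. The diet is labelled CDAHFD, the usual abbreviation for a choline-deficient, L-amino-acid-defined, high-fat diet; what the control mice ate, the time on the diet, the age and the sex are not stated in the sources at hand. The other 4 libraries came from CDAHFD-fed mice given the compound CDDO-Me at 10 mg/kg, by mouth over 8 weeks. They took part in the filter of genes, the scaling and the estimate of the spread between mice, and are not compared here. The comparison asks which transcripts of the whole liver differ between the diet model and healthy liver. Nothing in the labels says more of the mice than their replicate number, so p-values measure only the spread between these samples, which may in part be technical.

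Hepatocytes make up most of the mass of the liver and carry out its metabolic work: they secrete plasma proteins, make urea, bile acids and glucose, and pack triglyceride into very low density lipoprotein. Choline is needed for phosphatidylcholine, the main phospholipid of that particle. A diet that lacks it leads to fat in hepatocytes, inflammation and scarring in mice, without the weight gain of most other high-fat diets. Macrophages and hepatic stellate cells, the main source of collagen in an injured liver, are the non-parenchymal cells best known for their part in steatohepatitis.

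Poly(A) RNA from each liver was read in pairs of 75 bases, and 28778071 to 33852338 reads fell on genes in each of the 8 libraries. The NASH livers had more genes with at least 5 reads (17510 to 18173 against 15302 to 16313). Levels are given as counts per 1000000 reads (CPM) after TMM scaling, which sets the libraries so that most genes lie near no change. Control liver 3 held transcripts of smooth muscle and bile duct far above the other controls: Acta2, the actin of smooth muscle, stood at 139 CPM there and at 1.5 to 2.28 CPM in the others, and Krt19, a keratin of bile duct cells, at 141 against 3.14 to 4.29 CPM. Neither gene passed the test with that liver in the comparison, and both were called higher in NASH without it (log2 fold change 2.24 for Acta2 and 1.94 for Krt19), as were 15 of 16 markers of bile duct cells in place of 8. Values without that liver are given for some of the genes and lists below, but not for every list whose counts changed without it.

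Of 16456 genes with enough reads to test, 4874 were called higher in NASH (29.6%) and 4945 lower (30.0%) by edgeR's quasi-likelihood test at an adjusted p under 0.05, together 59.7% of all genes tested. Large rises outnumbered large falls. At least 2-fold rises were found in 3394 genes (20.6%) and falls of that size in 1273 (7.74%), and 8-fold rises in 997 (6.06%) against 102 falls (0.620%). Values of the 4 livers of a group are given in the order of their replicate numbers, and a change without a unit is a log2 fold change of NASH over control with its standard error. The 4 NASH livers lay wholly above or below the 4 controls in 8952 genes (54.4%). Reads that fell in introns, a small part of all gene reads, were also tested on their own: of 12274 genes tested on both kinds of reads, 3867 were called on both, and 3830 of these moved in the same direction.

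The balance of rises and falls rests on the scaling. With library totals in place of TMM the median of all genes moved from -0.01 to 0.62 on the log2 scale and 88.2% of calls were rises, in place of 49.6%. With the authors' TPM (transcripts per 1000000) 92.6% were. A gene called lower by less than about that shift may therefore be unchanged or higher as a share of all reads. Of the genes described below, Apoe, Pemt, Tlr5, Il18, Chuk, Pttg1, Col18a1 and Hnf4a lost their call of a fall with library totals and with TPM, and Alb, Mat1a, Bhmt, Nox4 and Nid2 lost it with TPM. Apob turned to a called rise with both. In bulk tissue, fewer cells of a type and less RNA per cell cannot be told apart.

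Abundant and rare transcripts moved in opposite directions. Among the 100 genes with the highest mean TPM, 71 were called lower and 6 higher, with a median log2 fold change of -1.03. Among the 6456 genes of the lowest rank, 634 were called lower and 2501 higher, with a median of 0.53. With library totals the order was kept: 53% of the first group and 3.24% of the last were called lower. A gene with few reads in the controls passed the filter only through groups where it was higher, the CDDO-Me livers among them. Ranks rest on the mean over both groups. The part of the filter and the ranking in these shares, and in the balance of large rises and falls, was not tested.

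**Figure D1:**
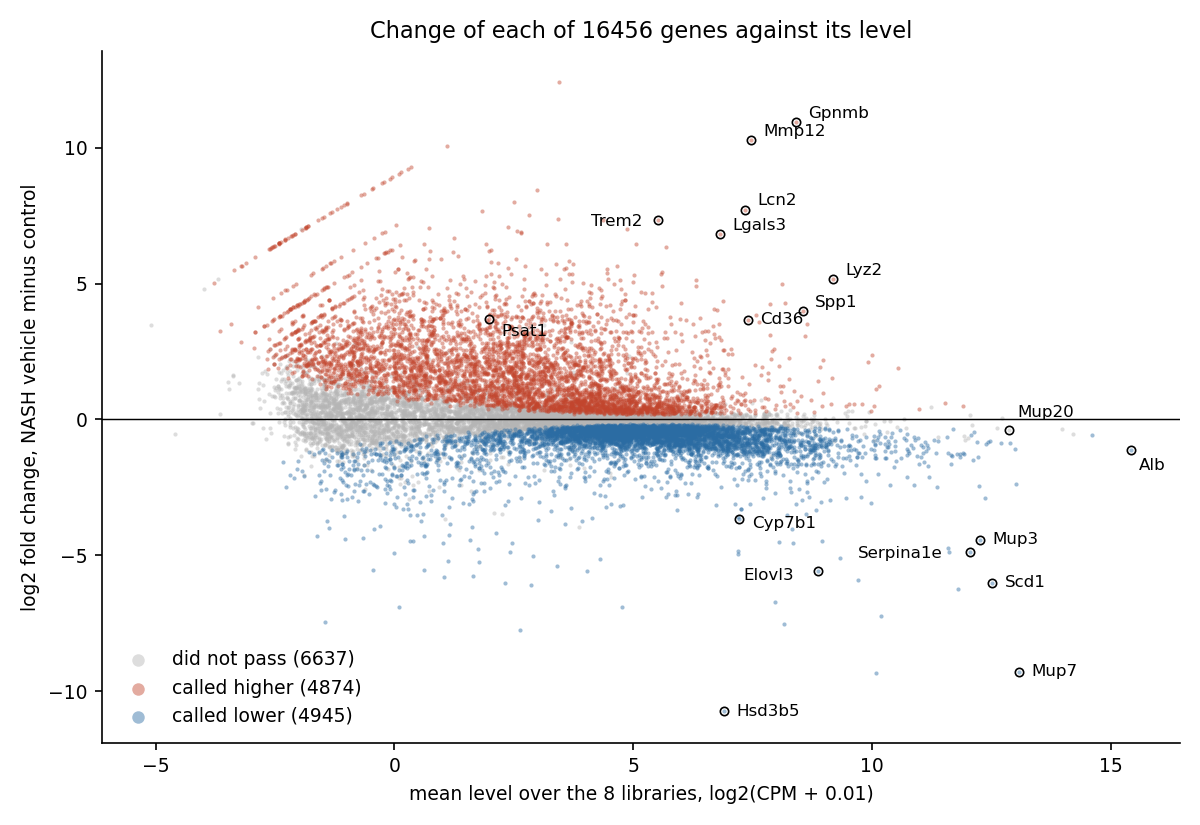
Each point is 1 of the 16456 genes tested, placed by its mean level in the 8 livers (x axis, log2 of CPM + 0.01) and its log2 fold change, NASH vehicle minus control (y axis); red points were called higher, blue lower, grey did not pass, and the slanted rows of points at the left are genes with few or no reads in the controls. The highest points at the left to middle are rises and the points beyond a level of 10 lie mostly below 0, with Alb at -1.11 and Mup7 at -9.31.

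The largest rises were in genes of macrophages and of tissue damage. Gpnmb, a membrane glycoprotein of lipid-loaded macrophages, was at 0.23, 0.277, 0.481 and 0.358 CPM in the 4 controls and 408, 857, 742 and 706 CPM in the 4 NASH livers. Mmp12, the macrophage elastase, was at 0.23, 0.184, 0.259 and 0.447 CPM in the 4 controls and 193, 441, 374 and 405 CPM in the 4 NASH livers. Every NASH liver was far above every control, the lowest of them 849 times the highest control for Gpnmb and 431 times for Mmp12, and NASH liver 1 was the lowest of its group. Their log2 fold changes were 10.95 ± 0.43 (SE), adjusted p = 3.7e-09 for Gpnmb and 10.29 ± 0.57 for Mmp12. Lcn2, a secreted iron-siderophore-binding protein that injured hepatocytes and neutrophils release, was at 0.999, 1.43, 2.18 and 1.48 CPM in the 4 controls and 299.99, 292, 276 and 425 CPM in the 4 NASH livers, a log2 fold change of 7.72 ± 0.25. The groups did not overlap. Other rises among the leading 12 were in the lectin Clec4d (7.38), the lipid-sensing receptor Trem2 (7.35), the ubiquitin-like protein Ubd (7.34), the sheddase Adam8 (7.0), the protease inhibitor Timp1 (6.89), the interleukin-7 receptor Il7r (6.87), the galectin Lgals3 (6.81) and the integrin Itgax (6.45), all on the log2 scale. Without control liver 3 the change of Il7r was 7.67. Timp1 lies within an intron of Syn1 on the other strand, and the kit used does not mark strand.

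The largest falls were in enzymes of fatty acid and steroid metabolism and in major urinary proteins. Scd1, the stearoyl-CoA desaturase that makes oleate, was at 13807, 11139.7, 7565 and 13842 CPM in the 4 controls and 314, 95.9, 127 and 183 CPM in the 4 NASH livers. Every NASH liver lay below every control, and NASH liver 1 was the highest of its group. The log2 fold change was -6.01 ± 0.43 (SE), adjusted p = 2.2e-07. Elovl3, an elongase of long-chain fatty acids, was at 647, 1181, 763 and 1099 CPM in the 4 controls and 20.1, 18.7, 15.4 and 22 CPM in the 4 NASH livers, again without overlap (log2 fold change -5.60 ± 0.47). Hsd3b5, a keto-steroid reductase, had the largest fall (-10.75 ± 0.30), but only 28% of its reads were unique to it, and the value may hold reads of its copies. Of the 12 leading falls 7 were in major urinary proteins, close copies that share reads. Pitx3, a transcription factor known from lens and midbrain, fell by 6.92 on the log2 scale, with 75% of its reads in introns. It begins at base 46135685 of chromosome 19, and Elovl3 ends at base 46135307 on the other strand. The kit used does not mark strand, and whether reads of Elovl3 were counted for Pitx3 was not tested.

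**Figure D2:**
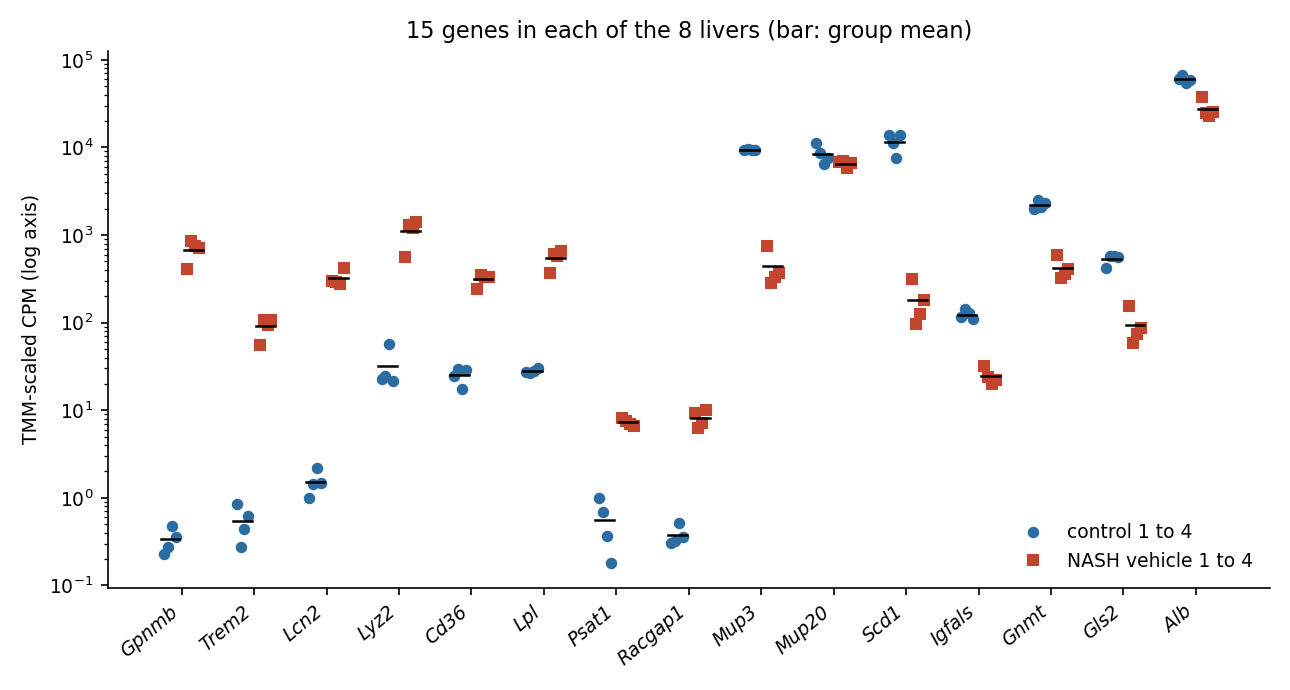
TMM-scaled CPM on a log axis for 15 genes (x axis) in each of the 4 control livers (blue circles) and the 4 NASH vehicle livers (red squares), with a bar at each group mean. The groups are apart for each gene but Mup20; NASH liver 1, the first square of each group, lies nearest to the controls for most.

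A few secreted proteins held much of the pool of transcripts, and their shares moved between the groups. The 21 major urinary proteins (Mup genes), small lipocalins that male mice secrete in quantity, held 10% ± 0.594 (SD, n = 4) of all TPM in the controls and 2.54% ± 0.098 (SD, n = 4) in NASH. Serpina1e, a copy of the alpha-1-antitrypsin gene, fell from a mean of 8797 to 523 TPM, with a log2 fold change in CPM of -4.88 ± 0.56, and -5.64 without NASH liver 1. Alb, serum albumin, was at 59920.3, 66953, 53939 and 59116 CPM in the 4 controls and 37954, 24456, 22803 and 25705 CPM in the 4 NASH livers. It led all genes in level in each group, as the main product of hepatocytes. All 4 NASH livers were below all 4 controls, and NASH liver 1 was the highest of them (log2 fold change -1.11 ± 0.22 (SE), adjusted p = 0.00062). Among the 10 largest gains of TPM were Hp, the haemoglobin-binding acute phase protein haptoglobin, from 2543 to 6891 TPM, and lysosomal and macrophage genes: Psap, the precursor of the saposins, from 400.1 to 2667 TPM, Lyz2, a lysozyme, from 43.1 to 2701 TPM, and Ctss, cathepsin S, from 21.7 to 1232 TPM. Apoe shows how the scaling matters: its mean TPM was 24349 in control and 28972 in NASH, while its log2 fold change in CPM was -0.58 ± 0.19 with TMM, 0.05 with library totals and 0.26 with TPM, and it did not pass without control liver 2.

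**Figure D3:**
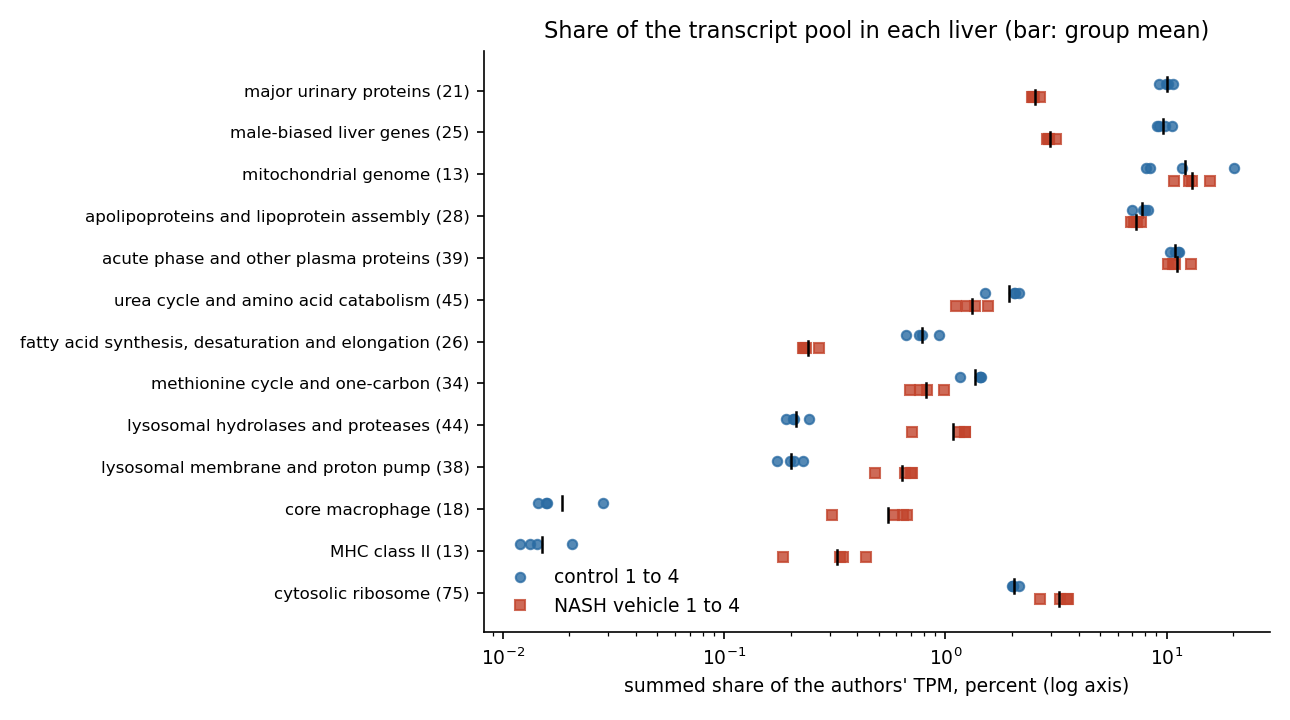
Summed share of the authors' TPM, in percent on a log axis, held by 13 gene groups (number of genes in brackets) in each control (blue circles) and NASH vehicle liver (red squares), with a bar at each group mean. The major urinary proteins fall from 10.0% to 2.54%, the lysosomal hydrolases rise from 0.211% to 1.08%, and the genes of the mitochondrial genome overlap between the groups.

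Genes with a male bias in mouse liver fell almost as a whole. The male pattern is set by the pulsed release of growth hormone, read through the receptor Ghr and the factor STAT5B. Of 25 genes tested from the list, 24 fell and 0 rose, with a median log2 fold change of -3.47, against -0.01 over all genes, and -2.85 with library totals. Mup3, of whose reads 99% were unique to it, was at 9389, 9576, 9339 and 9387 CPM in the 4 controls and 758, 286, 336 and 373 CPM in the 4 NASH livers. The 4 controls were within a few percent of each other, and the highest NASH liver was still 12.3 times below the lowest of them. Its log2 fold change was -4.43 ± 0.34 (SE), adjusted p = 3.2e-07. Cyp7b1, an oxysterol hydroxylase, was at 266, 335, 222 and 283 CPM in the 4 controls and 28.6, 18.1, 17.3 and 22.6 CPM in the 4 NASH livers, a log2 fold change of -3.68 ± 0.19 without overlap.

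Mup20, the pheromone darcin and the member that did not pass, was at 11391, 8630.4, 6479.5 and 7538 CPM in the 4 controls and 6780.0, 7048, 5768 and 6645 CPM in the 4 NASH livers. The groups overlapped, with a log2 fold change of -0.38 ± 0.24 (SE), adjusted p = 0.19, which was 0.26 with library totals. Its mean TPM was 15802 in control and 21876 in NASH. Genes with a female bias were mixed: of 17 tested, 8 rose and 5 fell, and 3 fell without control liver 3 or NASH liver 4. The shares over all genes were 29.6% higher and 30.0% lower. Cyp2a4, a testosterone hydroxylase, was at 0.423, 0.184, 0.814 and 0.313 CPM in the 4 controls and 10.4, 6.59, 8.57 and 13.1 CPM in the 4 NASH livers, a log2 fold change of 4.42 ± 0.42. Sult1e1, the oestrogen sulfotransferase, had 8 reads in all 4 controls and 1117 in the NASH livers.

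Along the growth hormone axis itself, the receptor and its liver products fell. Ghr was at 616, 745, 581 and 681 CPM in the 4 controls and 276, 186, 207 and 187 CPM in the 4 NASH livers, without overlap (log2 fold change -1.62 ± 0.16 (SE), adjusted p = 2.3e-06). Igf1, the hormone that liver releases on growth hormone signalling, was at 556, 551, 457 and 591 CPM in the 4 controls and 243, 239, 166 and 189 CPM in the 4 NASH livers (log2 fold change -1.36 ± 0.15). Igfals, which holds IGF1 in its circulating complex, was at 117, 142, 127 and 109 CPM in the 4 controls and 31.8, 23.7, 20.1 and 22.4 CPM in the 4 NASH livers, the largest fall of these 3 (-2.34 ± 0.17). Each NASH liver was below each control in all 3. In the list of 20 genes as a whole, 7 rose and 7 fell (median -0.18, and 0.44 with library totals), beside 29.6% higher and 30.0% lower of all genes. Among those that rose was Igfbp7, a secreted protein of vessels and stellate cells that binds IGFs and is counted beside the overlapping gene Polr2b (2.27 ± 0.21).

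The methionine cycle supplies the methyl groups from which liver can make phosphatidylcholine when choline is short. Of 34 genes of the methionine cycle and one-carbon metabolism, 24 fell and 5 rose, with a median of -1.09 (-0.47 with library totals). Markers of hepatocytes moved in the same direction: 18 of 20 fell and 0 rose, with a median of -1.41 (-0.79 with library totals), and their summed share of TPM was 10.9% to 12.5% in the controls and 8.64% to 11.4% in the NASH livers. The part of these markers in the falls of this list and of those of fatty acid synthesis, amino acid breakdown and lipoproteins was not tested. Gnmt, the glycine N-methyltransferase that uses up spare S-adenosylmethionine, was at 1983, 2487, 2086 and 2334 CPM in the 4 controls and 594, 319, 357 and 414 CPM in the 4 NASH livers. The groups were far apart, with a log2 fold change of -2.40 ± 0.23 (SE), adjusted p = 1.8e-06. Mat1a, which makes S-adenosylmethionine in adult liver, fell by 1.10, and Bhmt, which uses betaine from choline to remake methionine, by 1.22 (55% of its reads were unique to it, and 72.6% of those of Gnmt). Csad, which makes taurine from cysteine, fell by 2.84, and the serine hydroxymethyltransferase Shmt1 by 1.82. Rises were in the form of the synthetase used outside adult liver, Mat2a (1.21 ± 0.10), and in the mitochondrial folate enzymes Mthfd1l (2.19 ± 0.22) and Mthfd2 (1.68 ± 0.23).

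Pemt, which makes phosphatidylcholine by methylation, was at 324, 394, 286 and 346 CPM in the 4 controls and 212, 227, 161 and 189 CPM in the 4 NASH livers. Each NASH liver was below each control in CPM, with a log2 fold change of -0.78 ± 0.16 (SE), adjusted p = 0.00083, but the change was -0.15 with library totals and 0.04 with TPM. In phosphatidylcholine synthesis and remodelling as a whole, 7 of 34 genes rose and 16 fell (median -0.28, and 0.35 with library totals). Chpt1, the last enzyme of the choline branch, fell by 1.29. A pair of genes that act on platelet-activating factor rose: Lpcat2, which makes it in myeloid cells (3.58 ± 0.30), and Pla2g7, a secreted phospholipase that breaks it down (4.97 ± 0.36).

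Genes of fatty acid synthesis fell. Of 26 genes of fatty acid synthesis, desaturation and elongation, 21 fell and 2 rose (median -1.17, and -0.55 with library totals), and the list held 0.788% ± 0.114 (SD, n = 4) of TPM in control and 0.24% ± 0.0187 (SD, n = 4) in NASH. Me1, the malic enzyme that supplies NADPH, fell by 2.91, the regulator Srebf1 by 2.02 and ATP citrate lyase, Acly, by 1.81. Cd36, a fatty acid translocase of macrophages, endothelium and fatty hepatocytes, was at 24.6, 29.8, 17.7 and 28.5 CPM in the 4 controls and 244, 347, 335 and 330.4 CPM in the 4 NASH livers. The lowest NASH liver was at 8.2 times the highest control (log2 fold change 3.65 ± 0.18 (SE), adjusted p = 1.1e-08). The list of lipid droplets and fatty acid uptake to which it belongs had 8 of 25 members higher and 11 lower (median -0.14). Of all genes 29.6% were higher and 30.0% lower. With library totals 14 members of the list were higher and 3 lower (0.48). Lpl, the lipoprotein lipase that adult hepatocytes hardly make, was at 27.6, 26.9, 28.1 and 30 CPM in the 4 controls and 371, 606, 571 and 656 CPM in the 4 NASH livers, a log2 fold change of 4.29 ± 0.23. A pair of genes of cholesterol handling in macrophages rose too: the exporter Abcg1 (3.18 ± 0.12) and Soat1, which makes cholesteryl ester (4.07 ± 0.29). Soat1 was the 1 member called higher of 29 genes of cholesterol synthesis and uptake, of which 19 were lower (median -0.75, and -0.13 with library totals).

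Very low density lipoprotein is built on apolipoprotein B by the transfer protein Mttp. Mttp was at 345, 401, 363 and 352 CPM in the 4 controls and 191, 155, 138 and 139.6 CPM in the 4 NASH livers, without overlap (log2 fold change -1.23 ± 0.13 (SE), adjusted p = 3.5e-06). Apob was at 3852, 4072, 3353 and 3800.3 CPM in the 4 controls and 3668, 2660.3, 2699 and 2615 CPM in the 4 NASH livers. The groups overlapped, and its small fall of 0.37 (adjusted p = 0.045, edgeR's quasi-likelihood test) turned to 0.25 with library totals and 0.45 with TPM, and did not pass when any of 6 of the 8 livers was left out. Of 28 genes of apolipoproteins and lipoprotein assembly, 21 fell and 3 rose (median -0.86, and -0.23 with library totals). Plin2, the common coat protein of lipid droplets, was at 438, 696, 755 and 659 CPM in the 4 controls and 771, 903, 605 and 702 CPM in the 4 NASH livers; the groups overlapped and it did not pass (0.23 ± 0.20, adjusted p = 0.35), whereas with library totals it did (0.84, adjusted p = 0.0015).

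Several liver genes have a related gene of other tissues, called here the liver form and the other form. The ratio of both within 1 library does not depend on how libraries are scaled. The 4 pairs given here were chosen after their values were seen, and no test was made of the ratios. Core macrophage markers held 0.0185% of TPM in control and 0.551% in NASH, and their part in the ratios was not tested. Of pyruvate kinase, the last step of glycolysis, the liver form Pklr stood at 7.10 to 23.8 times the TPM of Pkm in the controls and at 0.398 to 0.917 times in the NASH livers. The lowest control was liver 3, where Pkm was at 49.7 CPM against 18.4 to 19.3 in the others. In CPM, Pklr fell by 1.90 and Pkm rose by 2.92.

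In the methionine cycle, Mat1a stood at 36.0 to 50.5 times Mat2a in control and 6.84 to 11.4 times in NASH. Hepatic lipase, Lipc, fell by 1.27, and its ratio to Lpl was 29.1 to 34.0 in control and 0.529 to 0.994 in NASH. Fabp1, the abundant fatty acid binding protein of hepatocytes, fell by 1.65; it remained 232 to 456 times as abundant as Fabp4, the form of adipocytes and macrophages, against 2265 to 2958 times in control.

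**Figure D4:**
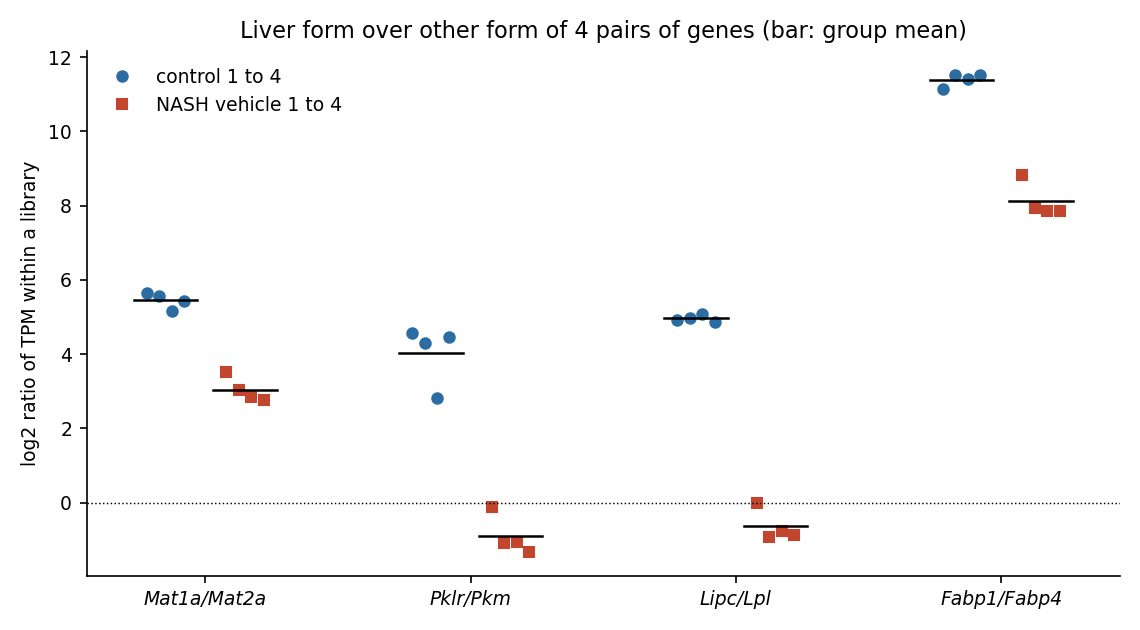
Log2 ratio of the TPM of the liver form to that of the other form (y axis) for 4 pairs of genes (x axis) in each control (blue circles) and NASH vehicle liver (red squares), with a bar at each group mean; 0 means equal TPM. The groups are apart for each pair, and the NASH ratios of Pklr to Pkm and Lipc to Lpl lie below 0.

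Enzymes that break down amino acids and make urea mostly fell. Of 45 tested, 37 fell and 2 rose (median -1.30, and -0.68 with library totals), beside a median of -1.41 for the hepatocyte markers. Arg1, the arginase that releases urea, was at 1328, 1755, 1562 and 1563 CPM in the 4 controls and 500.04, 284, 228 and 276 CPM in the 4 NASH livers, without overlap (log2 fold change -2.27 ± 0.26 (SE), adjusted p = 6.9e-06). Gls2, the glutaminase of hepatocytes, was at 419, 576, 576 and 565 CPM in the 4 controls and 155, 58.8, 73.9 and 86.3 CPM in the 4 NASH livers, and NASH liver 1 was the highest of its group, still below every control (log2 fold change -2.51 ± 0.36). Haao of the kynurenine route fell by 2.27, the urea cycle lyase Asl by 2.15 and Qdpr, which recycles the cofactor of phenylalanine hydroxylase, by 1.94. Enzymes of serine synthesis rose from a low level: Psat1 was at 0.999, 0.692, 0.37 and 0.179 CPM in the 4 controls and 8.11, 7.58, 6.95 and 6.6 CPM in the 4 NASH livers, with a log2 fold change of 3.69 ± 0.36, and Phgdh, the first enzyme of that route, rose by 3.46 with 75% of its reads unique to it. In the list of the unfolded protein and integrated stress response 12 of 36 genes were higher and 15 lower (median -0.32). The shares over all genes were 29.6% higher and 30.0% lower. Without control liver 1, 8 genes of the list were lower, and without control liver 3, 20 were. With library totals 18 were higher and 0 lower (0.31). The rises of the list held Nupr1, a stress-induced chromatin protein (3.76 ± 0.21), and Trib3, a pseudokinase that dampens AKT (3.21 ± 0.23).

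Receptors of innate immunity rose as groups. Of 23 genes of the Toll-like receptor pathway, 16 rose and 3 fell (median 1.63). Tlr13, a sensor of bacterial ribosomal RNA in endosomes, was at 0.538, 0.369, 0.444 and 0.626 CPM in the 4 controls and 14, 27.5, 23.1 and 27 CPM in the 4 NASH livers (log2 fold change 5.52 ± 0.33 (SE), adjusted p = 6.3e-08). Tlr5, the flagellin receptor, fell by 1.09 with TMM, but did not pass with library totals (-0.46, adjusted p = 0.097, edgeR's quasi-likelihood test), where 21 of the 23 were higher and 0 lower. Of 18 Fc receptors and their signal adaptors, 15 rose and 1 fell, with the high-affinity IgG receptor Fcgr1 at 3.57 ± 0.19 and the adaptor Tyrobp, which also carries the signal of Trem2, at 4.32 ± 0.24. Among 23 C-type lectins 16 rose and 3 fell. Clec7a, the beta-glucan receptor dectin-1, was at 2.11, 1.11, 1.15 and 0.626 CPM in the 4 controls and 64.6, 135, 99 and 110.5 CPM in the 4 NASH livers, far apart in each liver, and Clec2h fell by 2.89.

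NF-kB carries signals of these receptors to the nucleus. In the list of NF-kB subunits and feedback inhibitors 13 of 18 rose and 2 fell; 1 fell when any of 7 of the 8 livers was left out, and 0 with library totals. Chuk, the kinase IKK-alpha, fell by 0.72 with TMM, and its change was -0.09 with library totals and 0.05 with TPM. Relb was at 1.31, 1.57, 3.59 and 2.19 CPM in the 4 controls and 21.6, 29.9, 27.2 and 29.3 CPM in the 4 NASH livers, Nfkb2 rose by 2.06, and their upstream kinase Map3k14 by 1.90. Of the receptors and ligands of the TNF superfamily 19 of 29 rose and 0 fell, among them the lymphotoxin chain Ltb (4.35 ± 0.43), the receptor Cd40 (4.39 ± 0.45) and Tnfrsf1b (1.66 ± 0.14). In the interleukin-1 family 14 of 19 rose. The 2 members that fell were the receptor chain Il1rap, with 215, 215, 203 and 203 CPM in the 4 controls and 85.6, 62.9, 58.1 and 66.2 CPM in the 4 NASH livers, and the cytokine Il18, which fell by 1.04 and did not pass with library totals (-0.40, adjusted p = 0.14, edgeR's quasi-likelihood test).

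The phagocyte NADPH oxidase, which makes superoxide, rose in most of its parts: 6 of 8 genes of the list rose, and 1, Nox4, fell. Cybb, its catalytic subunit, was at 6.64, 5.67, 7.25 and 5.19 CPM in the 4 controls and 83, 129, 127 and 149.99 CPM in the 4 NASH livers (log2 fold change 4.30 ± 0.30 (SE), adjusted p = 3.9e-07). Nox4, a related oxidase of hepatocytes and stellate cells, fell by 0.95, and by 0.33 with library totals. The receptors of the complement fragments C3a and C5a rose, C3ar1 by 5.40 and C5ar1 by 4.82, whereas of 35 complement genes as a whole 9 rose and 22 fell (median -0.50, and 0.12 with library totals). All 13 genes of the MHC class II pathway rose, with Cd74, its invariant chain, at 46.2, 43.5, 60.6 and 41.4 CPM in the 4 controls and 272, 409.9, 381 and 602 CPM in the 4 NASH livers. NASH liver 4 was the highest and NASH liver 1 the lowest. Core macrophage markers rose in 17 of 18 cases, and their summed share of TPM was 0.0185% ± 0.00656 (SD, n = 4) in control and 0.551% ± 0.166 (SD, n = 4) in NASH. The receptor, NADPH oxidase and MHC class II lists moved in the same direction as these markers. The complement list did not with TMM, but 17 of its genes were higher and 9 lower with library totals. With TPM 20 were higher and 7 lower. Some of these lists share genes with the markers: Fcgr1 and Tyrobp belong to both the Fc receptor list and the core macrophage markers. The complement list shares genes with these markers too. A shared direction is to that extent built in. The part of the core macrophage markers in the changes of the other groups was not tested.

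Lysosomal genes rose as well. Of 44 hydrolases and proteases 23 rose and 4 fell (median 0.33, and 0.96 with library totals), and their summed share of TPM went from 0.21% ± 0.0218 (SD, n = 4) to 1.08% ± 0.248 (SD, n = 4). Lgmn, the asparaginyl protease legumain, was at 39.6, 42.9, 42.7 and 36.3 CPM in the 4 controls and 177, 232, 203 and 242 CPM in the 4 NASH livers. The groups were far apart (log2 fold change 2.40 ± 0.11 (SE), adjusted p = 5.4e-09). Hexa, a subunit of the hexosaminidase of gangliosides, rose by 1.87, and Ctsk, the collagen-degrading cathepsin K, by 3.85. In the lysosomal membrane and proton pump 22 of 37 rose and 4 fell, led by Slc11a1, the iron and manganese exporter of phagosomes (4.17 ± 0.20), and Atp6v0d2, a pump subunit of macrophages and osteoclasts (5.14 ± 0.28).

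Promoters were searched for short motifs because the members of some groups moved together. RefSeq gives promoters for 12095 of the tested genes (build GRCm38.p6), and the 250 bases before the start were read on both strands. CACGTG, the E-box bound by lysosomal regulators of the MiT/TFE family among others, was in 30.6% of 36 promoters of lysosomal hydrolases and 20.7% of 29 of the lysosomal membrane, against 9.27% of all. CCAAT, a common box of cell cycle genes, was in 76.9% of 26 mitosis genes and 39.9% of all. TGANTCA, a loose form of the AP-1 motif that allows any base in the middle, was in 9.60% of 708 genes that rose at least 8-fold. It was in 7% of 914 that fell at least 2-fold and in 6.04% of all. No match of one of these motifs overlapped a match of another in the 5 promoters printed below. These were taken only from genes called higher, with 1 start in the table and a match. Among those they had the lowest p of their list or the largest rise. Motifs and genes were chosen after values were seen. Capitals mark the motif or its reverse complement.
Racgap1 (CCAAT box, CCAAT; chr15:99651657-99651906, minus strand): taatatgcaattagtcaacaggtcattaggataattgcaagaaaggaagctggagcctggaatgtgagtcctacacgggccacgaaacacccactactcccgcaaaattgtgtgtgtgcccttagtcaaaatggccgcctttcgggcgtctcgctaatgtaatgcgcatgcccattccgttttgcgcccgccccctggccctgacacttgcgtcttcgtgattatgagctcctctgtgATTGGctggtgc
Cenpe (CCAAT box, CCAAT; chr3:135212313-135212562, plus strand): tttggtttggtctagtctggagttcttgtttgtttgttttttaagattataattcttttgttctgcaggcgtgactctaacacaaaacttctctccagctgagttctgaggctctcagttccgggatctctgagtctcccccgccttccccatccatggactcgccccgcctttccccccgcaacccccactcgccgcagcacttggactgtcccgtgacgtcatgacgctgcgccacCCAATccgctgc
Trem2 (AP-1 site, TGANTCA; chr17:48346151-48346400, plus strand): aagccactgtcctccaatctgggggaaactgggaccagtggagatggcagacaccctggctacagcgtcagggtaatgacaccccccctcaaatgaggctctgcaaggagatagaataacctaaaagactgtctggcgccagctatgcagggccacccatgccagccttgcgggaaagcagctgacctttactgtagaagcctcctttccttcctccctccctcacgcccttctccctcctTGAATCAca
Itgax (AP-1 site, TGANTCA; chr7:128129300-128129549, plus strand): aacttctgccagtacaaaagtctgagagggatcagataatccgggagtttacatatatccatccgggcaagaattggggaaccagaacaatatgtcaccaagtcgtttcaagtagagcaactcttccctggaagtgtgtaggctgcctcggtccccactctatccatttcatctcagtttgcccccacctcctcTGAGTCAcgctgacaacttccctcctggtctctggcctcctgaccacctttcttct
Ctsd (E-box, CACGTG; chr7:142387828-142388077, minus strand): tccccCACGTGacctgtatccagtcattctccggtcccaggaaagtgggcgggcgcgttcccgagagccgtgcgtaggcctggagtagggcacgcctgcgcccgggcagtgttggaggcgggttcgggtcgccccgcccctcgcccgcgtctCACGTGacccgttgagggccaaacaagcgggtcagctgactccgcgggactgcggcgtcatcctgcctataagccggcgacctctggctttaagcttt
The match begins 12 bases before the start in Racgap1 and Cenpe, 9 in Trem2 and 56 in Itgax, and 245 and 98 before it in Ctsd. The match in Trem2, TGAATCA, has A in the middle, where the usual AP-1 motif has C or G. A match is a description of the sequence and not a bound site.

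The genes behind these promoters all rose, which was set by their choice among genes called higher. Racgap1, which sets the plane of cell division, was at 0.307, 0.323, 0.518 and 0.358 CPM in the 4 controls and 9.27, 6.32, 7.24 and 9.97 CPM in the 4 NASH livers (log2 fold change 4.42 ± 0.32 (SE), adjusted p = 1.7e-07). Cenpe, a kinesin of the kinetochore, rose by 4.63, Trem2 was at 0.845, 0.277, 0.444 and 0.626 CPM in the 4 controls and 54.9, 108, 93 and 108 CPM in the 4 NASH livers, and Ctsd, the aspartyl protease cathepsin D, rose by 2.13, though 19.1% of its reads were unique to it and the value may hold reads of copies. The lowest NASH liver was at 12.2 times the highest control for Racgap1 and 65 times for Trem2. Mitosis was the most uniform list of the cell cycle: 31 of 32 rose and 1 fell (median 3.39). Mki67, the standard marker of dividing cells, was at 1.11, 1.2, 0.333 and 0.805 CPM in the 4 controls and 21.5, 15.3, 19.7 and 22.9 CPM in the 4 NASH livers, a log2 fold change of 4.54 ± 0.34. Pttg1, the securin that holds sister chromatids together, went the other way and fell by 0.84, or 0.21 with library totals.

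DNA replication moved less: 3 of 33 genes fell and 16 rose (median 0.54). Mcm6, a subunit of the replicative helicase, rose by 1.85. Mcm10, an initiation factor, was at 102, 164, 68.3 and 79.5 CPM in the 4 controls and 35.2, 19.3, 20.5 and 17.3 CPM in the 4 NASH livers, and so fell without overlap (-2.17 ± 0.32). Among cyclins, their inhibitors and p53 targets, 22 of 30 rose and 0 fell. Cdkn1a, the inhibitor p21, rose by 2.40, Phlda3, another p53 target, by 3.28, and Trp53 itself by 0.45.

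In the extracellular matrix, most collagen chains, glycoproteins and proteases rose. Of 33 collagen chains tested 21 rose and 5 fell (median 2.04), of 44 glycoproteins and proteoglycans 36 rose and 3 fell (2.04), and of 33 matrix proteases and inhibitors 28 rose and 2 fell (2.48). Markers of stellate cells and myofibroblasts moved with them, with 13 of 18 higher and 0 lower (median 1.31), or 17 higher without control liver 3 (1.87). Their summed share of TPM was 0.0152% to 0.0444% in the controls, highest in control liver 3, and 0.075% to 0.128% in the NASH livers. The list of these markers overlaps that of glycoproteins and proteoglycans, so a shared direction is in part built in. The part of these markers in the matrix changes was not tested. Col1a1, the main chain of scar collagen, was at 23.2, 9.04, 39.6 and 22.4 CPM in the 4 controls and 363, 453, 453 and 506 CPM in the 4 NASH livers. The lowest NASH liver was at 9.16 times the highest control (log2 fold change 4.23 ± 0.41 (SE), adjusted p = 4.7e-06). Col6a3, of the beaded microfibrils around stellate cells, rose by 4.02, and Col4a1, of basement membranes, by 2.42 (73.2% of its reads unique). Col18a1, also of basement membranes, fell by 0.62 with TMM, but its change was 0.00 with library totals and 0.18 with TPM. Loxl2, which crosslinks collagen, rose by 2.36, and the elastic fibre protein Emilin1 by 2.25. Both nidogens, which tie laminin to collagen IV, parted: Nid1 rose by 2.16 and Nid2 fell by 1.29, or 0.65 with library totals.

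Growth factors of scarring and of vessels moved both ways. Tgfb1, the main fibrogenic cytokine, was at 6.95, 6.92, 8.47 and 8.63 CPM in the 4 controls and 28.3, 40.4, 37.7 and 41.6 CPM in the 4 NASH livers, without overlap (log2 fold change 2.25 ± 0.19 (SE), adjusted p = 6.8e-07). In the TGF-beta, BMP and activin list 20 of 42 rose and 7 fell, and Gdf10, a ligand of that family, rose by 2.68. Kdr, the VEGF receptor of endothelium, was at 31, 42.6, 39.3 and 36.3 CPM in the 4 controls and 18.9, 10.7, 7.9 and 10.9 CPM in the 4 NASH livers, and the angiopoietin receptor Tek fell by 1.40. Of 21 genes of the PDGF, VEGF and angiopoietin list as a whole 10 rose and 7 fell, beside 29.6% higher and 30.0% lower of all genes. Of 14 markers of vascular endothelium 5 were higher and 6 lower (median -0.26, and 0.36 with library totals), and of 17 of sinusoidal endothelium 3 were higher and 8 lower (-0.58, and 0.04). Of 25 integrins 19 rose and 1 fell, with Itgb5 at 1.29 ± 0.12. Genes of the actin cytoskeleton rose in 27 of 37 cases and fell in 2, among them the actin-binding peptide Tmsb4x, from 90.2 to 965 TPM (2.59 ± 0.21), and the membrane linker Msn (2.55 ± 0.20). Anxa2, a phospholipid-binding annexin, rose by 3.44. Krt8, the hepatocyte keratin, was at 327, 344, 361 and 339 CPM in the 4 controls and 679, 686, 639.9 and 658 CPM in the 4 NASH livers (0.96 ± 0.10), and the tubulin Tuba4a fell by 2.10.

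Genes of blood clotting moved both ways, and both plasminogen activators rose. Of 37 genes of coagulation and fibrinolysis, 24 were lower and 10 higher with TMM (median -0.83), 17 lower and 12 higher with library totals (-0.21), and 8 lower and 12 higher with TPM (-0.01). F7, the factor that starts clotting with tissue factor, was at 127, 151, 135 and 125 CPM in the 4 controls and 60.7, 44.3, 46.7 and 53.7 CPM in the 4 NASH livers, without overlap (log2 fold change -1.39 ± 0.13 (SE), adjusted p = 1e-06). Plau, the urokinase, was at 1.92, 0.461, 1.63 and 1.7 CPM in the 4 controls and 15.2, 24.2, 21.9 and 17.6 CPM in the 4 NASH livers (3.77 ± 0.31), and the tissue activator Plat rose by 4.39.

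Transcription factors of hepatocytes moved by amounts near the shift between scalings. Of 23 tested 14 fell and 4 rose with TMM (median -0.56), but the median was 0.07 with library totals; without control liver 4 or NASH liver 2, 2 rose. Hnf4a, the leading regulator of hepatocyte identity, was at 769, 758, 558 and 707 CPM in the 4 controls and 509, 378, 347 and 357 CPM in the 4 NASH livers, with a log2 fold change of -0.81 ± 0.15 (SE), adjusted p = 0.00048, -0.19 with library totals and 0.01 with TPM. Its mean TPM was 244 in control and 246 in NASH. Ppara, the receptor that drives fat oxidation, overlapped between the groups and did not pass (-0.33 ± 0.24, adjusted p = 0.25, and 0.28 with library totals). Without NASH liver 1 it was called lower (-0.68, adjusted p = 0.0014, edgeR's quasi-likelihood test). Of 37 nuclear receptors 17 were lower and 6 higher with TMM (median -0.41), but 5 lower and 16 higher with library totals (0.21). The thyroid hormone receptor Thrb fell by 1.17, while Pparg, the receptor of adipocytes and macrophages, was at 12.4, 13.9, 11.4 and 14.5 CPM in the 4 controls and 26.3, 25.3, 25.8 and 22.1 CPM in the 4 NASH livers and rose by 0.93.

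Clock genes, whose phase depends on the hour of collection, which is not stated, moved both ways: 7 of 19 were higher and 9 lower (median -0.34). Of all genes 29.6% were higher and 30.0% lower. With library totals 10 of the clock genes were higher and 4 lower (0.29). Cry1, a repressor of the clock, was at 35.6, 36.7, 29.8 and 38.8 CPM in the 4 controls and 8.88, 7.45, 9.77 and 10.3 CPM in the 4 NASH livers (-1.95 ± 0.21), and Bhlhe41 rose by 3.80. Dbp varied among livers and rose by 2.11, or by 3.23 without control liver 3; leaving out any of 5 other livers ended its call.

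Genes of iron, heme and metal handling had 5 of 32 members higher and 15 lower with TMM (median -0.35), but 16 higher and 7 lower with library totals (0.28); with TMM, leaving out control liver 1, 3 or 4 or NASH liver 2 or 4 left 3 higher. Hmox1, which breaks down heme, was at 8.83, 10.1, 9.81 and 10.6 CPM in the 4 controls and 64.9, 96.6, 108 and 97.3 CPM in the 4 NASH livers (log2 fold change 3.23 ± 0.18 (SE), adjusted p = 3.7e-08). Hamp, the iron hormone hepcidin, was at 670.0, 689, 286 and 464 CPM in the 4 controls and 215, 139, 145 and 145 CPM in the 4 NASH livers, and so fell without overlap (-1.71 ± 0.36). Slc30a10, a manganese exporter of hepatocytes, fell by 2.86, and the metallothionein Mt1 rose by 2.58. H19, an imprinted noncoding RNA of fetal liver, rose by 4.58, or by 5.26 without control liver 3.

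Several large gene groups moved by about the size of the scaling shift, so that their direction depends on it. All 76 nuclear-encoded genes of the respiratory chain were called lower with TMM (median -0.93); with library totals 51 were lower and 2 higher (median -0.30), and with TPM 22 and 3 (median -0.11). Of 31 proteasome genes 30 were lower with TMM (-0.67), while with library totals 5 were lower and 2 higher (-0.04). Of 75 cytosolic ribosomal proteins 14 were lower and 0 higher with TMM (-0.14), but 69 were higher and 0 lower with library totals (0.49); with single livers left out, 6 to 22 were lower. Of 22 heat shock genes 19 were lower with TMM (-0.73), and 5 lower and 1 higher with library totals (-0.10). The lists named above as falling by a median of more than 1, with the mitosis, matrix and immune receptor lists, kept their direction under both.

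**Figure D5:**
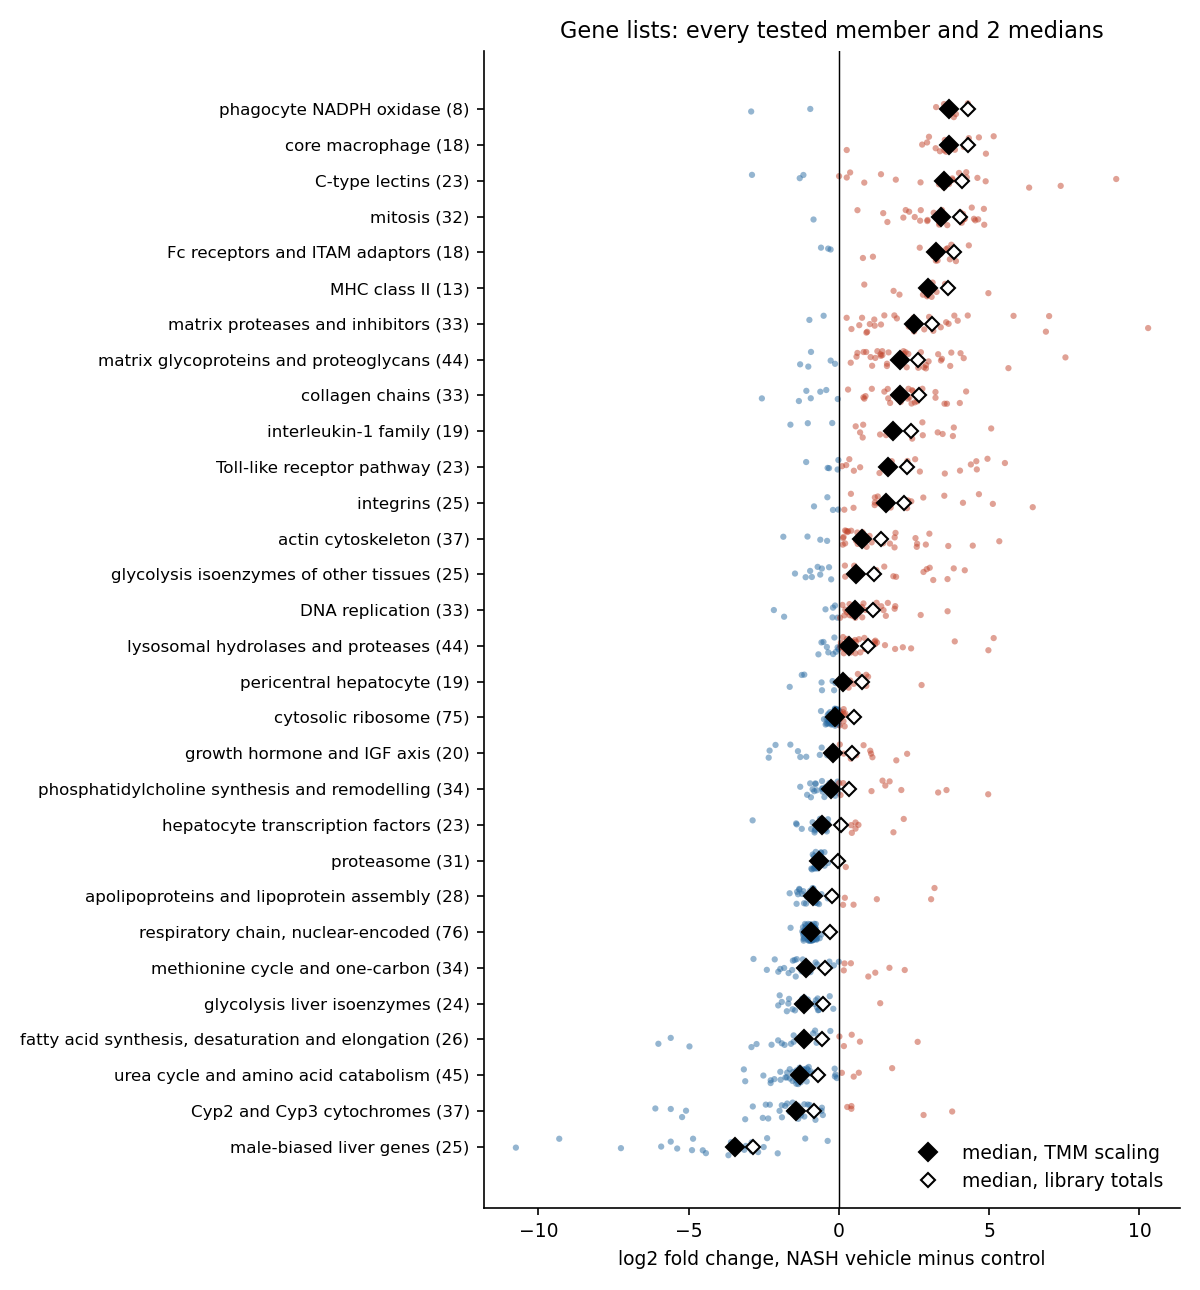
Log2 fold change, NASH vehicle minus control (x axis), of every tested member (points; red above 0, blue below) of 30 gene lists (y axis, number of members tested), ordered by their median with TMM scaling (filled diamond); the open diamond is the median with library totals. The medians run from -3.47 for male-biased liver genes to 3.66 for the phagocyte NADPH oxidase, and the diamonds of the lists from cytosolic ribosome to proteasome lie near 0 or on both sides of it.

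The 4 NASH livers did not stand equally far from the controls. For 66.9% of the 3394 genes that rose at least 2-fold, NASH liver 1 was the lowest of the 4, and for 69.4% of the 1273 that fell it was the highest. Each of the other NASH livers took that place in 7.6% to 14.2% of the rises. Clec4f, a lectin of resident Kupffer cells, was at 39.7, 54.5, 51.4 and 35.7 CPM in the 4 controls and 110.0, 16.2, 25.6 and 30.4 CPM in the 4 NASH livers; NASH liver 1 was above all controls and the other 3 were below them, and the change of 0.01 ± 0.56 became -0.91 without that liver (adjusted p = 0.063, edgeR's quasi-likelihood test). Of 13 markers of Kupffer cells 5 were higher and 3 lower (median 0.74), and with library totals 9 were higher and 2 lower (1.33). The shares over all genes were 29.6% higher and 30.0% lower with TMM, and the median of all genes was 0.62 with library totals. Among the controls, liver 3 was the highest for 45.8% of the genes that rose. Leaving out NASH liver 1 gave 9634 calls, and leaving out control liver 3 gave 10172, against 9819.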

How the data were processed

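Gene-level tables of 12 poly(A) RNA libraries were used, 8 of them in the comparison. The authors' deposited tables, per the file headers, give read counts per gene (total, unique, exon and intron reads) and TPM; build GRCm38 is per the submitters' processing notes, and aligner and counter are not given in any source used here. The 12 libraries were fitted together with edgeR 4.0.16 (R 4.3.3): TMM scaling, filterByExpr (10 reads, 15 in total), glmQLFit and glmQLFTest with 1 mean per group, NASH vehicle minus control, two-sided, Benjamini-Hochberg adjustment over 16456 of 41325 genes at 0.05. The fit was tested on simulated data. With 4 livers a group and 28778071 to 33852338 reads each, weak changes of rare genes may be missed. TPM was averaged or summed as deposited. Of 2145 entries in 82 gene lists, 2140 matched a gene. The gene lists and the genes named were chosen with earlier results of these data known. Genes were named as the leading 12 rises and falls (mean CPM of at least 5, at least 10 reads in each group, no overlap) and the 10 largest gains and losses of TPM. Up to 5 members of a list with the lowest p, up to 3 called against its majority, and key genes were named too. The second members of the 4 gene pairs were added after their values were seen. Some genes that these rules name are not reported here. Alternatives were other scalings, read types, filters and tools (DESeq2 1.42.0, limma 3.58.1) and leaving out each liver. Replicate numbers did not pair the samples.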

Additional observations from a re-analysis of the deposited data

Results flagged for a closer look

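In 22 of the 282 groups of 4 livers examined for the named genes (7.80%), 1 liver lay far from the other 3, with a gap above the 95% critical value of Dixon's test. Chance alone would give about 1 in 20.

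NASH liver 1 stood apart in 8 groups. It was nearer to the controls for Mup7 (58.9 CPM, the others 14 to 21.1), Srebf1 (88.5, the others 62.2 to 64.0), Apob (3667, the others 2615 to 2699), Hamp (215, the others 139 to 145), Clec4d (9.63, the others 24.5 to 26.5), Cd36 (244, the others 330.4 to 347) and Msn (74.3, the others 111 to 112). For the Kupffer cell gene Clec4f it was at 110 CPM, above every control, and the others at 16.2 to 30.4.

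Control liver 3 stood apart in 7, always as the highest: Acta2 (139 CPM, the others 1.5 to 2.28), Krt19 (141, the others 3.14 to 4.29), Lyz2 (57.1, the others 21.8 to 24.6), Soat1 (4.63, the others 2.21 to 2.55), Pkm (49.7, the others 18.4 to 19.3), C3ar1 (1.78, the others 0.691 to 0.805) and Anxa2 (27.6, the others 12 to 14.6).

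The remaining 7 were spread over 5 livers. Lcn2 was at 425 CPM in NASH liver 4 (the others 276 to 300.0), Apoe at 17115 in NASH liver 3 and 35556 in control liver 2, and Il18 at 6.28 in NASH liver 3. Gls2 was at 419 in control liver 1, Nid1 at 15.1 in control liver 2 and Ppara at 103 in control liver 4.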

How the results depend on the processing

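The call counts turned on scaling. With library totals 9908 genes were higher and 1326 lower (5376 and 440 at least 2-fold), and with limma on TPM 11005 were higher and 882 lower (219 at least 2-fold lower). Intron reads gave 2333 higher, 2062 lower and 1860 at least 2-fold higher, with fewer genes tested; a test of the fold against 2 gave 2259 higher and 587 lower. Leaving out each liver gave 4477 to 5178 higher and 4493 to 4994 lower, of which 3186 to 3778 and 1162 to 1446 were at least 2-fold. DESeq2, its size factors, limma-voom, exon reads, unique reads, both other filters and the fit of 8 libraries stayed within 1.5 times of the counts. The replicate block gave 9472 calls in place of 9819, with 9375 called in both and the same direction in each. Same-numbered livers had correlations of 0.03, -0.05, 0.01 and -0.10, so the numbers were not taken as pairs.

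Among those of the 141 named genes that passed the test, signs turned, or changes went to 0.00, with library totals for Apoe (0.05), Apob (0.25) and Col18a1 (0.00), with TPM for Apoe (0.26), Apob (0.45), Pemt (0.04), Hnf4a (0.01), Chuk (0.05) and Col18a1 (0.18), and on intron reads for Mat2a (-0.46), Mthfd2 (-0.79), Pttg1 (0.02) and Hamp (0.35), none of these 4 called there; the cause was not tested. Of those that did not pass, Mup20 and Ppara turned with library totals (0.26 and 0.28) and TPM (0.49 and 0.21), Acta2 and Krt19 with TPM (1.16 each), limma-voom (0.57 and 0.43) and the replicate block (0.04 and 0.15), and Clec4f, near no change, with limma-voom (-0.38), intron reads (-0.53) and the block (-0.19). Without control liver 3, Acta2 and Krt19 turned to called rises: over the livers left out in turn, Acta2 ran from -2.38 to 2.24 and Krt19 from -1.84 to 1.94. Genes with few reads in the controls set the limit of depth: their fold changes depend on single reads.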

Other observations

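Cytochromes and conjugation enzymes of drug metabolism, not described above, were mostly lower. Of 37 cytochromes of the Cyp2 and Cyp3 families 32 were lower and 2 higher (median -1.44, and -0.82 with library totals), against 30.0% of all genes lower. Of 42 conjugation enzymes 33 were lower and 5 higher (-0.93, and -0.31). Of 32 organic ion transporters 16 were lower and 8 higher (-0.48), but with library totals 8 were lower and 13 higher (0.14). Along the liver lobule, genes of periportal hepatocytes fell in 11 of 17 cases and rose in 2 (-1.54, and -0.95 with library totals). Of 19 pericentral genes 8 rose and 4 fell (0.14), beside 29.6% higher and 30.0% lower of all genes. Without NASH liver 3, 5 of the pericentral genes rose. Glul, the glutamine synthetase of the cells around the central vein, was at 754, 927, 878 and 925 CPM in the 4 controls and 1233, 1231, 1270.4 and 1166 CPM in the 4 NASH livers (0.49 ± 0.11), all NASH livers above all controls. Cyp1a2, another pericentral gene, fell by 1.15.

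Of 683 long intergenic noncoding RNAs 182 were higher (26.65%) and 97 lower (14.2%), with a median of 0.16, against 30.44% higher and 32.04% lower of 14576 protein-coding genes (-0.03) and 38.74% higher and 9.82% lower of the 6456 genes of the lowest level. The kit does not mark strand, so the 565 antisense RNAs (126 higher, 96 lower) cannot be told apart from reads of the genes they overlap. Among all genes called higher, 59 had 0 reads in all 4 controls, and among all called lower, 1 had 0 reads in all 4 NASH livers.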
